A study of Vitis vinifera with 42 samples.

Results

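Veraison under cover was followed from a state that covered and light-grown berries shared. The libraries of T8 berries at E-L 36, whose clusters had been bagged since E-L 35, were set against those of T2 berries at E-L 35, the light-grown state when the bags went on. A gene was a member if either group averaged 1 FPKM or more, which gave 18173 of the 28940 genes measured, in 6 of the 42 libraries of the series. FPKM are fragments per kilobase of transcript corrected for library size, and differences are given on the scale of log2(FPKM + 1), which understates the change of genes of low level. Of the members, 16301 reached that average in both groups, 1278 were under that value in T2 berries at E-L 35 and 594 were under it in T8 berries at E-L 36. The threshold cut through a dense range, with 304 members whose higher group mean was between 1 and 1.1 FPKM and 359 genes just outside, between 0.9 and 1 FPKM.

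The berries were Cabernet Sauvignon, a red wine grape, from field-grown, own-rooted vines of a single vineyard. T8 clusters were covered at E-L 35, when berries begin to colour and soften, and uncovered at E-L 36, and the study counts their berries of that stage as bagged and only the later ones as uncovered. T2 clusters were never bagged, and their E-L 36 libraries give the same step in the light. T1 clusters, bagged from E-L 29 until harvest, are used here only for a few values at E-L 36. The bags were of kraft paper with a black waxed lining and a straw for ventilation. The 3 biological replicates of a group are called A, B and C here, and RNA came from berries without their seeds, skin and flesh together, so that fewer cells of a type and less RNA per cell cannot be told apart. Since the step from T2 berries at E-L 35 to T8 berries at E-L 36 holds both the passage of a stage and the cover, T8 and T2 berries at E-L 36 were also compared, which equals the difference between the covered and the light-grown step.

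At veraison a grape berry turns from a green, hard and acid organ into one that softens, imports sugar, loses malate and, in red cultivars, fills its skin with anthocyanins. Phenylalanine enters the pathway through phenylalanine ammonia-lyase, chalcone synthase and chalcone isomerase build the flavonoid skeleton, hydroxylases decorate its B-ring, and UFGT adds the glucose that makes a stable anthocyanin. The MYB factors of the berry colour locus switch on UFGT, and light reaches such genes through cryptochromes, phytochromes, the UV-B receptor and the bZIP factors HY5 and HYH.

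Seed-type transcripts were on average higher in the T8 libraries at E-L 36 than in the T2 libraries they were compared with. The berries had been deseeded. For each library a seed marker score was taken as the average of log2(FPKM + 1) over 16 genes annotated as seed storage, late embryogenesis abundant or oil body proteins. It was 5.23 to 6.29 in the T8 libraries, against 2.27 to 3.74 in T2 libraries at E-L 36 and 2.68 to 3.39 in T2 libraries at E-L 35. The summed level of these genes was 2090 to 4594 FPKM in T8 berries, against 283 to 494 FPKM in T2 berries at E-L 36 and 334 to 456 FPKM in T2 berries at E-L 35. At most 1 of the 16 was listed at 0 in a T8 library, up to 6 were in T2 berries at E-L 36 and up to 2 in T2 berries at E-L 35. Not every marker rose. Against T2 berries at E-L 35, 10 of the 15 that were members were higher without overlap. The late embryogenesis protein Lea14-A (VIT_215s0046g02110) changed by -1.25 and glutelin type-A 1 by -0.43, both passing. A glutelin type-B 5-like gene (-1.25) and the 7S globulin-like VIT_207s0005g04680 (-0.34) did not pass. The score was higher in every T8 library than in every T2 library of both stages. It was also high elsewhere in the series, at 5.14 to 5.30 in T8 libraries at E-L 37, at 5.21 in replicate C of T1 at E-L 35, and at 4.75 to 6.04 in T1 libraries at E-L 31, whose summed levels were 10399 to 46320 FPKM. High scores were not limited to bagged clusters. Replicate C of the never-bagged T2 at E-L 31 had 4.99 and a summed level of 9987 FPKM, while its replicates A and B had 3.46 and 2.99. Genes whose deviations from their group means follow the score over the 42 libraries (r of at least 0.5, as a description) are named as such where they appear, and calls with the score as a covariate are given beside lists, but the part of seed tissue in the results was not tested. Since T8 and T2 libraries did not overlap in the score, that covariate also lowers the precision of their comparison. A call lost with it can therefore come from a larger SE and not from a smaller change. The number of genes above 0 was 22175 to 22428 in T8 libraries, 21134 to 21458 in T2 libraries at E-L 36 and 21530 to 21901 in T2 libraries at E-L 35. Read depth, judged from the spacing of low values, differed by at most 1.11-fold among these 9 libraries.

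From the shared E-L 35 state, 3551 genes were higher and 1783 lower in T8 berries at E-L 36, at an adjusted p under 0.05 from limma, which is 29.4% of the members (19.5% higher and 9.81% lower). With libraries scaled by median of ratios the split was 2620 higher and 2703 lower, so that the excess of higher genes depends on the scaling. The median log2 fold change over all members was 0.08 as deposited and -0.01 scaled. DEGs, which in addition changed by at least 1 on the log2 scale, numbered 1140 (6.27%), with 732 higher (4.03%) and 408 lower (2.25%). Of the 732, 364 had a mean under 1 FPKM in T2 berries at E-L 35, 146 rose by at least 3 on the log2 scale, and 282 (38.5%) followed the seed score. Of the 408 lower DEGs, 3 fell by at least 3 and 4 (0.98%) followed the score. With the score as a covariate there were 385 higher and 400 lower DEGs.

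The same step in the light had 4557 called genes among these members (25.1%), 2234 higher and 2323 lower (12.3% and 12.8%), and 832 DEGs (4.58%), 223 higher and 609 lower (1.23% and 3.35%). Both steps start from the same 3 libraries, so they are not independent. Between T8 and T2 berries at E-L 36, 1962 genes were higher and 557 lower in T8 berries (10.8% and 3.06%), or 1555 and 991 after scaling. That contrast had 877 DEGs (4.83%), 804 higher (4.42%) and 73 lower (0.402%), of which 291 and 1 followed the seed score, and with the score as a covariate they were 285 and 90. The libraries of T8 berries at E-L 36 and T2 berries at E-L 35 did not overlap for 5303 members that were higher (29.2%) and 3289 that were lower (18.1%).

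**Figure D1:**
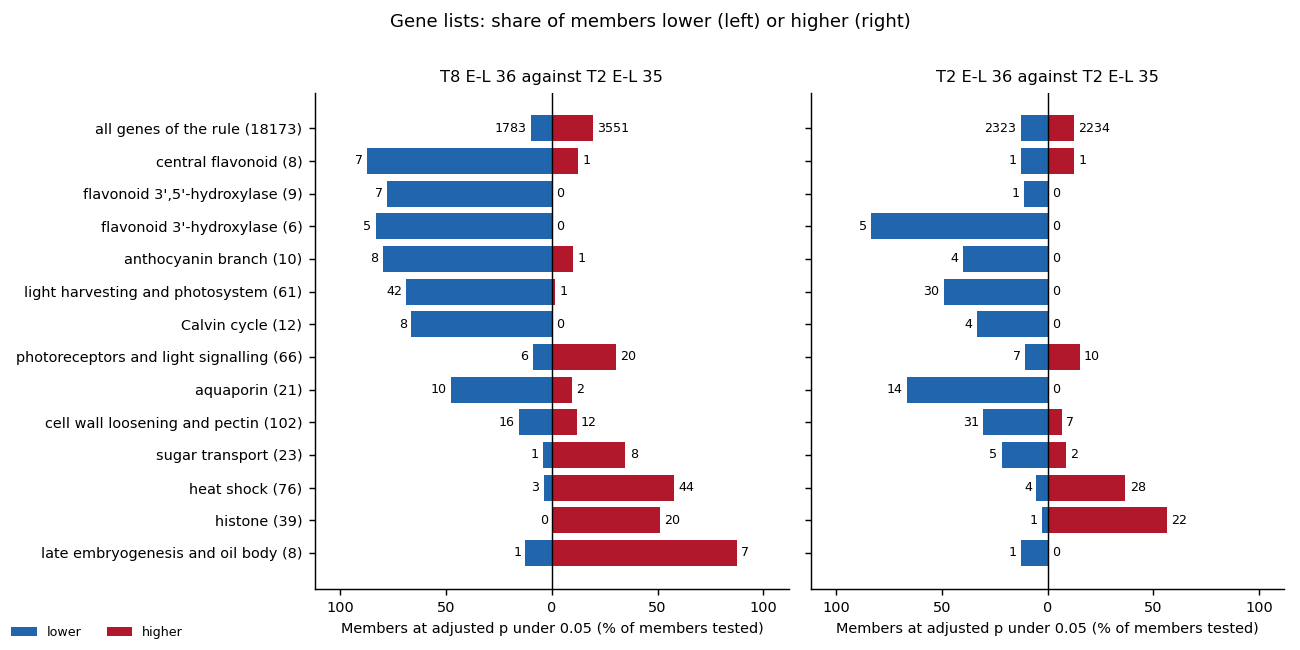
Share of the tested members of 13 gene lists, and of all 18173 genes, that were lower (bars to the left) or higher (bars to the right) at an adjusted p under 0.05, in percent, with counts at the bar ends and the number tested in brackets. The left panel sets T8 berries at E-L 36 and the right panel T2 berries at E-L 36 against the same T2 libraries at E-L 35. Flavonoid, anthocyanin and photosynthesis lists lie to the left in the left panel, while heat shock, histone and late embryogenesis lists lie to the right.

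Anthocyanin genes were lower at the end of the covered step. Of 10 genes of the anthocyanin branch, 8 fell and 1 rose in T8 berries at E-L 36 against T2 berries at E-L 35, and with scaled libraries 8 fell and none rose. The falls were 80% of the list, beside 9.81% of all members. Their median log2 fold change was -1.15, against 0.08 over all members, and 8 also fell with the seed score as a covariate. In the light 4 of the 10 fell and none rose, with a median of -0.60, and 5 of the 10 were lower in T8 than in T2 berries at E-L 36. Those are 40% and 50%, beside 12.8% and 3.06% of all members. With the covariate 4 were lower in T8 than in T2 berries at E-L 36.

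VviMYBA1 (VIT_202s0033g00410, chromosome 2), the MYB activator of UFGT, had 2.03, 2.79 and 2.52 FPKM in T8 berries at E-L 36, against 10.57, 8.53 and 8.01 FPKM in T2 berries at E-L 36 and 26.44, 21.58 and 19.75 FPKM in T2 berries at E-L 35. The 3 groups did not overlap, with the lowest values under cover. Its log2 fold change against E-L 35 was -2.77 (SE 0.39, adjusted p = 3.36e-06), that of the light-grown step was -1.23 (SE 0.39, adjusted p = 0.0206), and the covered and light-grown berries at E-L 36 differed by -1.54 (SE 0.39, adjusted p = 0.00676), a difference that did not pass with a pseudocount of 0.1 or with the seed score as a covariate. With that covariate its size was little changed, at -1.47 (adjusted p = 0.12). The deposited description names this locus as another MYBA gene of the colour locus, whose near-identical copies may share reads. VviMYBA2 (VIT_202s0033g00390), its neighbour with the same role, had 72.02, 68.95 and 76.48 FPKM in T8 berries, 102.95, 104.47 and 94.27 FPKM in T2 berries at E-L 36 and 134.43, 163.33 and 135.70 FPKM in T2 berries at E-L 35. Those groups did not overlap either, but the difference from E-L 35 of -0.98 (SE 0.47, adjusted p = 0.131) did not pass the test.

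UFGT (VIT_216s0039g02230, chromosome 16), which glucosylates anthocyanidins, had 32.78, 28.00 and 31.11 FPKM in T8 berries at E-L 36, against 69.60, 59.36 and 51.00 FPKM in T2 berries at E-L 36 and 89.62, 91.40 and 90.68 FPKM in T2 berries at E-L 35. Every T8 library lay under every T2 library, and the log2 fold changes were -1.54 (SE 0.17, adjusted p = 8.04e-08) for the covered step and -0.60 (SE 0.17, adjusted p = 0.00987) for the light-grown step, with a difference of -0.94 (SE 0.17, adjusted p = 0.000255). LDOX (VIT_202s0025g04720), which makes the coloured anthocyanidin, had 89.76, 65.73 and 73.54 FPKM in T8 berries at E-L 36, 203.94, 149.77 and 102.66 FPKM in T2 berries at E-L 36 and 258.63, 278.85 and 227.94 FPKM in T2 berries at E-L 35. The covered step was -1.73 (SE 0.33, adjusted p = 0.000226), while the light-grown step at -0.79 (SE 0.33, adjusted p = 0.0908) and the difference at -0.94 (SE 0.33, adjusted p = 0.0623) did not pass. DFR (VIT_218s0001g12800), the enzyme before LDOX, had 55.37, 52.29 and 47.05 FPKM in T8 berries, 43.83, 50.87 and 43.94 FPKM in T2 berries at E-L 36 and 99.77, 101.81 and 90.27 FPKM in T2 berries at E-L 35. Here covered and light-grown berries at E-L 36 overlapped, and both were lower than at E-L 35, with -0.90 (SE 0.27, adjusted p = 0.0138) under cover and -1.06 (SE 0.27, adjusted p = 0.00489) in the light. Without replicate C of T8 its fall under cover did not pass.

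Genes of methylation and transport come after the sugar is added. A methyltransferase of the caffeoyl-CoA type (VIT_201s0010g03510) had 21.87, 18.52 and 17.45 FPKM in T8 berries, 42.63, 29.87 and 27.38 FPKM in T2 berries at E-L 36 and 73.62, 91.71 and 80.59 FPKM in T2 berries at E-L 35. The groups did not overlap, and the gene fell in both steps, with log2 fold changes of -2.03 (SE 0.19, adjusted p = 9.29e-09) under cover and -1.29 (SE 0.19, adjusted p = 9.83e-06) in the light. The glutathione S-transferase GST4 (VIT_204s0079g00690), known in grape for moving anthocyanins towards the vacuole, had 114.35, 109.37 and 150.65 FPKM in T8 berries, 266.93, 266.03 and 266.04 FPKM in T2 berries at E-L 36 and 254.71, 277.46 and 249.97 FPKM in T2 berries at E-L 35. Its light-grown step was 0.03 (SE 0.24, adjusted p = 0.972), whereas the covered step was -1.07 (SE 0.24, adjusted p = 0.00125) and T8 and T2 berries at E-L 36 differed by -1.10 (SE 0.24, adjusted p = 0.0021). That fall did not pass with a pseudocount of 0.1.

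A transporter of the MATE family (VIT_216s0050g00910), annotated like TRANSPARENT TESTA 12 of Arabidopsis, had 62.50, 51.74 and 69.46 FPKM in T8 berries, 184.03, 136.84 and 98.85 FPKM in T2 berries at E-L 36 and 133.44, 158.23 and 141.04 FPKM in T2 berries at E-L 35, with no overlap of the T8 libraries. The covered step was -1.23 (SE 0.31, adjusted p = 0.00378) and the difference from light-grown berries at E-L 36 was -1.14 (SE 0.31, adjusted p = 0.0134), which did not pass with a pseudocount of 0.1, without replicate B of T8 or without replicate A of T2 at E-L 36. Its neighbour VIT_216s0050g00900 was the member that rose, at 2.56, 1.75 and 3.89 FPKM in T8 berries, 1.69, 1.65 and 1.45 FPKM in T2 berries at E-L 36 and 1.15, 1.08 and 1.48 FPKM in T2 berries at E-L 35. Its log2 fold change of 0.70 (SE 0.25, adjusted p = 0.039) was near the threshold and was lost under several alternatives, scaling among them. The last member, a hydroxycinnamoyltransferase (VIT_203s0017g00870), had 28.59, 27.08 and 33.20 FPKM in T8 berries, 33.97, 38.26 and 30.12 FPKM in T2 berries at E-L 36 and 48.10, 52.82 and 56.11 FPKM in T2 berries at E-L 35. Its fall of -0.80 (SE 0.26, adjusted p = 0.0214) did not pass with a pseudocount of 0.1 or without some replicates of T8 or T2.

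**Figure D2:**
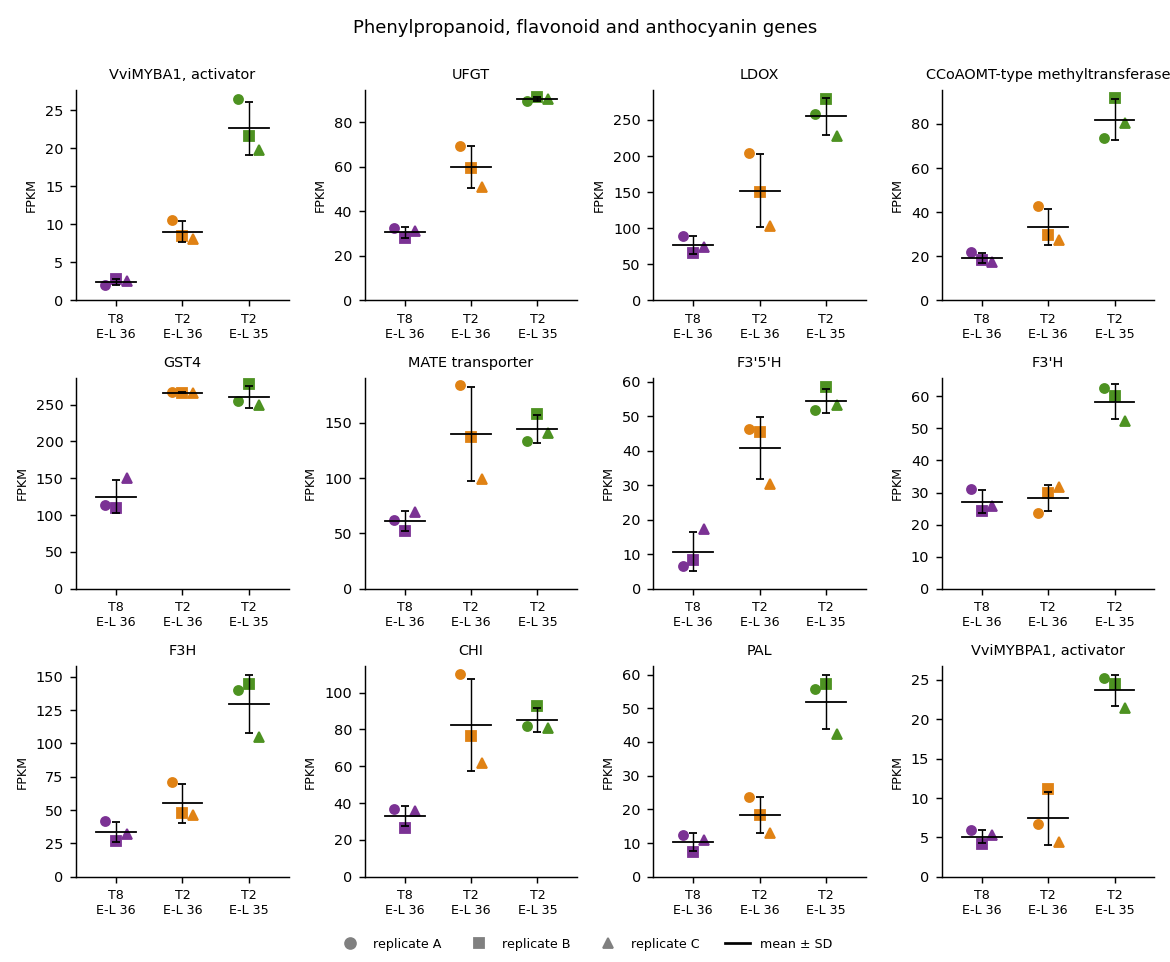
FPKM of 12 genes of phenylpropanoid, flavonoid and anthocyanin synthesis in T8 berries at E-L 36, T2 berries at E-L 36 and T2 berries at E-L 35, with a point for each replicate and the mean ± SD of 3 in black. VviMYBA1, UFGT, F3'5'H and the MATE transporter have every T8 value under every T2 value, whereas F3'H is at a like level in both groups at E-L 36.

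Flavonoid 3',5'-hydroxylases, which lead to the trihydroxylated, bluer anthocyanins, were lower under cover in most members. Of 9 members that passed the filter, of 18 in the table, 7 fell and none rose over the covered step (8 fell with scaled libraries, 4 with the seed score as a covariate), with a median of -1.68. In the light 1 fell, and 5 were lower in T8 than in T2 berries at E-L 36 (3 with the seed score as a covariate). The falls were 77.8% of the list under cover and 11.1% in the light, beside 9.81% and 12.8% of all members. The share lower in T8 than in T2 berries at E-L 36 was 55.6%, beside 3.06%. Of the 9, 8 carry chromosome 6 in their locus names and are close copies that may share reads. The other, VIT_208s0007g05160, has the F3'5'H entry of KEGG but the title of a TGA-type DNA-binding protein, and it was not called (-0.11, adjusted p = 0.567). VIT_206s0009g02840 had 6.64, 8.38 and 17.24 FPKM in T8 berries, against 46.32, 45.34 and 30.45 FPKM in T2 berries at E-L 36 and 51.70, 58.36 and 53.32 FPKM in T2 berries at E-L 35. The T8 libraries lay far below both T2 groups, with -2.34 (SE 0.27, adjusted p = 2.01e-07) for the covered step, -0.43 (SE 0.27, adjusted p = 0.282) for the light-grown step and a difference of -1.91 (SE 0.27, adjusted p = 1.33e-05). VIT_206s0009g02970, another copy, had 20.03, 18.62 and 28.05 FPKM in T8 berries, 64.76, 65.74 and 53.00 FPKM in T2 berries at E-L 36 and 75.47, 72.95 and 69.14 FPKM in T2 berries at E-L 35. Again no T8 library overlapped with T2, and the covered step was -1.68 (SE 0.29, adjusted p = 6.33e-05).

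Flavonoid 3'-hydroxylases, which lead to the dihydroxylated, redder pigments, fell in both steps. Of 6 members that passed the filter, of 15 in the table, 5 fell over the covered step (3 with the seed score as a covariate), 5 fell over the light-grown step and none differed between T8 and T2 berries at E-L 36 at an adjusted p under 0.05. In both steps the falls were 83.3% of the list, beside 9.81% of all members under cover and 12.8% in the light. The most abundant F3'H, VIT_217s0000g07200, had 31.21, 24.30 and 25.85 FPKM in T8 berries, 23.76, 29.75 and 31.58 FPKM in T2 berries at E-L 36 and 62.61, 60.07 and 52.24 FPKM in T2 berries at E-L 35. The E-L 36 groups overlapped and both lay under all E-L 35 libraries, with -1.08 (SE 0.19, adjusted p = 5.36e-05) under cover, -1.02 (SE 0.19, adjusted p = 0.000138) in the light and a difference of -0.06 (SE 0.19, adjusted p = 0.908).

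Earlier steps of the pathway were lower as well. Among the central flavonoid genes tested, 87.5% fell and 12.5% rose under cover, beside 9.81% and 19.5% of all members. In the light 12.5% fell, near the 12.8% of all members. The share lower in T8 than in T2 berries at E-L 36 was 12.5%, beside 3.06%. Of 8 central flavonoid genes that passed the filter, of 19, 7 fell and 1 rose over the covered step (6 fell with the seed score as a covariate), against 1 and 1 in the light, and 1 was lower in T8 than in T2 berries at E-L 36. That gene was a chalcone isomerase (VIT_213s0067g03820) with 36.59, 26.55 and 35.93 FPKM in T8 berries, 110.12, 76.21 and 61.53 FPKM in T2 berries at E-L 36 and 81.84, 92.70 and 80.64 FPKM in T2 berries at E-L 35. The log2 fold change was -1.35 (SE 0.34, adjusted p = 0.0031) under cover and -0.08 (SE 0.34, adjusted p = 0.925) in the light, with a difference of -1.27 (SE 0.34, adjusted p = 0.0103) that did not pass without replicate B of T8 or replicate A of T2 at E-L 36. The flavanone 3-hydroxylase VIT_204s0023g03370 had 41.80, 26.57 and 32.21 FPKM in T8 berries, 71.45, 47.48 and 46.04 FPKM in T2 berries at E-L 36 and 139.82, 144.77 and 104.73 FPKM in T2 berries at E-L 35. It fell in both steps, with -1.93 under cover (adjusted p = 0.000177) and -1.24 in the light (adjusted p = 0.0133). The most abundant chalcone synthase, VIT_205s0136g00260, named after its values were seen, had 361.93, 308.34 and 403.53 FPKM in T8 berries, 909.85, 812.89 and 631.03 FPKM in T2 berries at E-L 36 and 934.24, 972.69 and 830.10 FPKM in T2 berries at E-L 35. Its T8 libraries lay under all T2 libraries, the covered step was -1.35 (SE 0.40, adjusted p = 0.0121), and the difference at E-L 36 of -1.12 (SE 0.40, adjusted p = 0.0643) did not pass.

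At the entry of the pathway, phenylalanine ammonia-lyase VIT_206s0004g02620 had 12.52, 7.45 and 10.86 FPKM in T8 berries, 23.79, 18.35 and 13.00 FPKM in T2 berries at E-L 36 and 55.81, 57.05 and 42.49 FPKM in T2 berries at E-L 35. The T8 libraries lay under those of both T2 groups, and the steps were -2.24 (SE 0.47, adjusted p = 0.000616) under cover and -1.47 (SE 0.47, adjusted p = 0.0239) in the light. Over the 18 general phenylpropanoid genes that passed the filter, 4 fell and 2 rose under cover, a share of falls of 22.2% beside 9.81% over all members. VviMYBPA1 (VIT_215s0046g00170), a MYB activator of proanthocyanidin synthesis, fell in both steps, with 5.90, 4.17 and 5.25 FPKM in T8 berries, 6.76, 11.11 and 4.42 FPKM in T2 berries at E-L 36 and 25.19, 24.43 and 21.45 FPKM in T2 berries at E-L 35. The steps were -2.02 (SE 0.39, adjusted p = 0.000235) and -1.63 (SE 0.39, adjusted p = 0.00277), and the E-L 36 groups overlapped.

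Among the flavan-3-ol genes tested, 75% fell under cover and 100% in the light, beside 9.81% and 12.8% of all members. The share higher in T8 than in T2 berries at E-L 36 was 25%, beside 10.8%. Of 4 flavan-3-ol genes, 3 fell under cover (1 with the seed score as a covariate), all 4 fell in the light and 1 was higher in T8 than in T2 berries at E-L 36. That was a leucoanthocyanidin reductase (VIT_217s0000g04150, named after its values were seen), which makes catechin, with 43.92, 27.46 and 20.37 FPKM in T8 berries, 6.70, 6.02 and 6.30 FPKM in T2 berries at E-L 36 and 22.17, 23.33 and 23.86 FPKM in T2 berries at E-L 35. The covered step of 0.32 (SE 0.32, adjusted p = 0.516) did not pass, the light-grown step was -1.72 (SE 0.32, adjusted p = 0.000173), and the difference was 2.04 (SE 0.32, adjusted p = 4.56e-05). It followed the seed score (r = 0.57), and with the score as a covariate none of the list differed at E-L 36. Of 31 stilbene synthases that passed the filter, a family of near-identical copies, 5 rose and none fell under cover. That is 16.1%, under the 19.5% of all members that rose, and none was called with the seed score as a covariate.

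VviFLS4 (VIT_218s0001g03470), a flavonol synthase, lay just outside the rule, with a mean of 0.82 FPKM in T2 berries at E-L 35. It was listed at 0 in all 3 T8 libraries, against 1.26, 1.78 and 2.01 FPKM in T2 berries at E-L 36 and 1.00, 1.05 and 0.41 FPKM in T2 berries at E-L 35. Among the 19 flavonol genes that passed the filter, 3 rose and 1 fell under cover (3 and 2 with scaled libraries), which is 15.8% and 5.26% beside 19.5% and 9.81% of all members.

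Light signalling genes moved in both directions. Of 66 genes of photoreceptors and light signalling, 20 rose and 6 fell over the covered step, which is 30.3% and 9.09% beside 19.5% and 9.81% of all members (16 and 8 with scaled libraries, 12 and 3 with the seed score as a covariate), against 10 and 7 in the light, and 13 were higher and 7 lower in T8 than in T2 berries at E-L 36. The latter are 19.7% and 10.6%, beside 10.8% and 3.06% of all members, and with the covariate 4 were higher and 4 lower. HYH (VIT_205s0020g01090, chromosome 5), the close relative of HY5, had 1.80, 1.43 and 2.04 FPKM in T8 berries, against 10.48, 9.63 and 11.74 FPKM in T2 berries at E-L 36 and 9.72, 8.41 and 8.86 FPKM in T2 berries at E-L 35. Every T8 library lay far under every T2 library, with -1.86 (SE 0.24, adjusted p = 9.30e-07) for the covered step, 0.21 (SE 0.24, adjusted p = 0.597) in the light and a difference of -2.08 (SE 0.24, adjusted p = 8.45e-07).

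HY5 (VIT_204s0008g05210), the bZIP activator of light-induced genes, had 9.61, 11.93 and 9.91 FPKM in T8 berries, 20.02, 19.29 and 25.58 FPKM in T2 berries at E-L 36 and 15.32, 12.92 and 13.60 FPKM in T2 berries at E-L 35. The name is that of the study, since the deposited description of this locus names a cellulose synthase-like protein. Against E-L 35 its difference of -0.38 (SE 0.24, adjusted p = 0.265) did not pass, nor did the light-grown step of 0.59 (SE 0.24, adjusted p = 0.0759), while T8 and T2 berries at E-L 36 differed by -0.97 (SE 0.24, adjusted p = 0.00548), which did not pass with the seed score as a covariate. VIT_209s0002g05990, called CRY2 in the study and annotated as a (6-4) photolyase of the cryptochrome family, had 1.09, 0.96 and 1.30 FPKM in T8 berries, 5.47, 4.94 and 5.90 FPKM in T2 berries at E-L 36 and 3.27, 2.85 and 2.37 FPKM in T2 berries at E-L 35. The steps ran in opposite directions, with -0.85 (SE 0.19, adjusted p = 0.00104) under cover and 0.75 (SE 0.19, adjusted p = 0.00403) in the light, and the difference was -1.60 (SE 0.19, adjusted p = 1.06e-06).

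A deoxyribodipyrimidine photolyase (VIT_204s0008g02670), which repairs DNA damaged by UV with the energy of blue light, had 2.50, 1.30 and 2.17 FPKM in T8 berries, 8.22, 8.11 and 11.13 FPKM in T2 berries at E-L 36 and 7.72, 9.44 and 7.49 FPKM in T2 berries at E-L 35. T8 libraries lay under all T2 libraries, with -1.64 (SE 0.28, adjusted p = 5.44e-05) against E-L 35 and -1.77 (SE 0.28, adjusted p = 5.62e-05) against T2 berries at E-L 36. Both receptors named here rose with and without light. Phytochrome A (VIT_214s0060g00100), the receptor of far-red light, had 16.14, 16.13 and 16.68 FPKM in T8 berries, 16.21, 16.51 and 18.20 FPKM in T2 berries at E-L 36 and 10.61, 9.89 and 9.12 FPKM in T2 berries at E-L 35. Both E-L 36 groups lay above E-L 35, with 0.67 (SE 0.11, adjusted p = 1.58e-05) under cover, 0.73 (SE 0.11, adjusted p = 6.76e-06) in the light and a difference of -0.05 (SE 0.11, adjusted p = 0.839). A cryptochrome-2-like blue light receptor (VIT_205s0049g00960) rose likewise, by 0.74 under cover (adjusted p = 9.11e-05) and 0.51 in the light (adjusted p = 0.00488).

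A gene annotated as phytochrome-interacting factor 3 (VIT_215s0021g02690) rose, with 20.20, 12.18 and 7.22 FPKM in T8 berries, 1.44, 1.18 and 2.47 FPKM in T2 berries at E-L 36 and 0.52, 0.61 and 1.36 FPKM in T2 berries at E-L 35. Its rise of 2.88 (SE 0.47, adjusted p = 3.11e-05) followed the seed score (r = 0.79) and did not pass with the score as a covariate (adjusted p = 0.0888). Of 16 circadian clock genes 7 rose and 3 fell under cover (5 and 3 with scaled libraries, 3 and 2 with the seed score as a covariate), against 6 and 3 in the light. Under cover that is 43.8% and 18.8%, beside 19.5% and 9.81% of all members. The pseudo-response regulator VIT_216s0098g00900 rose in both steps, by 0.79 under cover (adjusted p = 7.14e-05) and 1.07 in the light (adjusted p = 1.23e-06). LHY (VIT_208s0040g03220), a morning factor of the clock, had 24.61, 20.14 and 22.96 FPKM in T8 berries, 24.38, 32.45 and 31.36 FPKM in T2 berries at E-L 36 and 29.41, 33.85 and 36.39 FPKM in T2 berries at E-L 35. Its covered step was -0.54 (SE 0.11, adjusted p = 0.000658), and the light-grown step of -0.18 did not pass (adjusted p = 0.304).

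Photosynthesis genes fell widely under cover, and in the light as well. Of 61 light-harvesting and photosystem genes that passed the filter, of 74, 42 fell and 1 rose over the covered step (43 and none with scaled libraries, 36 and 1 with the seed score as a covariate), with a median of -1.01. The falls were 68.9% of the list, beside 9.81% of all members. In the light 30 fell and none rose, with a median of -0.62, and 17 were lower and 1 higher in T8 than in T2 berries at E-L 36. The 17 are 27.9%, beside 3.06% of all members, and with the covariate 9 were lower and none higher. PsbS (VIT_218s0001g02740), the photosystem II subunit that dissipates excess light, had 9.67, 9.59 and 7.47 FPKM in T8 berries, against 29.55, 23.72 and 31.57 FPKM in T2 berries at E-L 36 and 42.25, 42.08 and 49.22 FPKM in T2 berries at E-L 35. The 3 groups did not overlap, with -2.2 (SE 0.18, adjusted p = 4.92e-10) under cover, -0.64 (SE 0.18, adjusted p = 0.00869) in the light and a difference of -1.56 (SE 0.18, adjusted p = 8.45e-07). ELIP (VIT_205s0020g04110), an early light-induced protein of chloroplasts, had 89.54, 104.66 and 82.79 FPKM in T8 berries, 261.80, 215.59 and 337.13 FPKM in T2 berries at E-L 36 and 215.20, 207.66 and 181.21 FPKM in T2 berries at E-L 35. Its covered step was -1.12 (SE 0.29, adjusted p = 0.00398), with every T8 library under every T2 library, while the light-grown step of 0.41 (SE 0.29, adjusted p = 0.351) did not pass.

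A light-harvesting protein of photosystem II (VIT_212s0028g00320) had 2.12, 1.14 and 0.66 FPKM in T8 berries, against 14.77, 8.36 and 11.15 FPKM in T2 berries at E-L 36 and 11.53, 12.35 and 11.24 FPKM in T2 berries at E-L 35. T2 berries at both stages overlapped and lay far above T8 berries, with -2.51 (SE 0.30, adjusted p = 3.49e-07) under cover and a difference of -2.45 (SE 0.30, adjusted p = 1.75e-06) at E-L 36. Another light-harvesting gene (VIT_210s0003g02900) was low at E-L 36 with and without light, at 0.35, 0.00 and 0.24 FPKM in T8 berries, 0.35, 0.34 and 0.81 FPKM in T2 berries at E-L 36 and 3.99, 4.57 and 7.51 FPKM in T2 berries at E-L 35. Its steps were -2.38 (SE 0.29, adjusted p = 4.00e-07) and -2.06 (SE 0.29, adjusted p = 4.43e-06). Subunit II of photosystem I (VIT_205s0020g03180) had 52.17, 43.95 and 36.84 FPKM in T8 berries, 87.48, 52.53 and 50.41 FPKM in T2 berries at E-L 36 and 174.76, 168.08 and 201.00 FPKM in T2 berries at E-L 35, and likewise fell in both steps, with -2.02 under cover (adjusted p = 1.48e-07) and -1.54 in the light (adjusted p = 9.77e-06). Loci annotated as CP43 (VIT_215s0046g01100) and D2 (VIT_211s0103g00100), core proteins of photosystem II that plants encode in the plastid, may share reads with plastid copies. CP43 was listed at 0 in all T8 libraries, against 9.73, 14.72 and 14.51 FPKM in T2 berries at E-L 36 and 12.06, 12.66 and 7.97 FPKM in T2 berries at E-L 35.

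Calvin cycle genes had 8 falls and no rise among 12 members under cover, against 4 falls in the light. Under cover the falls were 66.7% of the list, beside 9.81% of all members of the comparison. RuBisCO activase (VIT_206s0004g05180) had 20.42, 16.14 and 20.13 FPKM in T8 berries, 43.25, 36.80 and 39.98 FPKM in T2 berries at E-L 36 and 48.36, 52.28 and 88.35 FPKM in T2 berries at E-L 35, without overlap of T8 and T2. It fell in both steps, with -1.64 (SE 0.20, adjusted p = 5.72e-07) under cover and -0.59 (SE 0.20, adjusted p = 0.035) in the light, and a difference of -1.05 (SE 0.20, adjusted p = 0.000606). A mitochondrial serine hydroxymethyltransferase (VIT_200s0211g00120), an enzyme of photorespiration, had 3.85, 5.35 and 5.14 FPKM in T8 berries, 15.66, 17.25 and 21.08 FPKM in T2 berries at E-L 36 and 15.95, 18.73 and 22.54 FPKM in T2 berries at E-L 35. Light-grown berries of both stages overlapped, and T8 berries lay under both, with -1.79 (SE 0.18, adjusted p = 1.70e-08) against E-L 35. A glutathione S-transferase (VIT_201s0026g01340) also fell under cover, with -1.56 under cover (adjusted p = 5.30e-07), 0.10 in the light (adjusted p = 0.792) and a difference of -1.66 (SE 0.19, adjusted p = 8.45e-07).

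**Figure D3:**
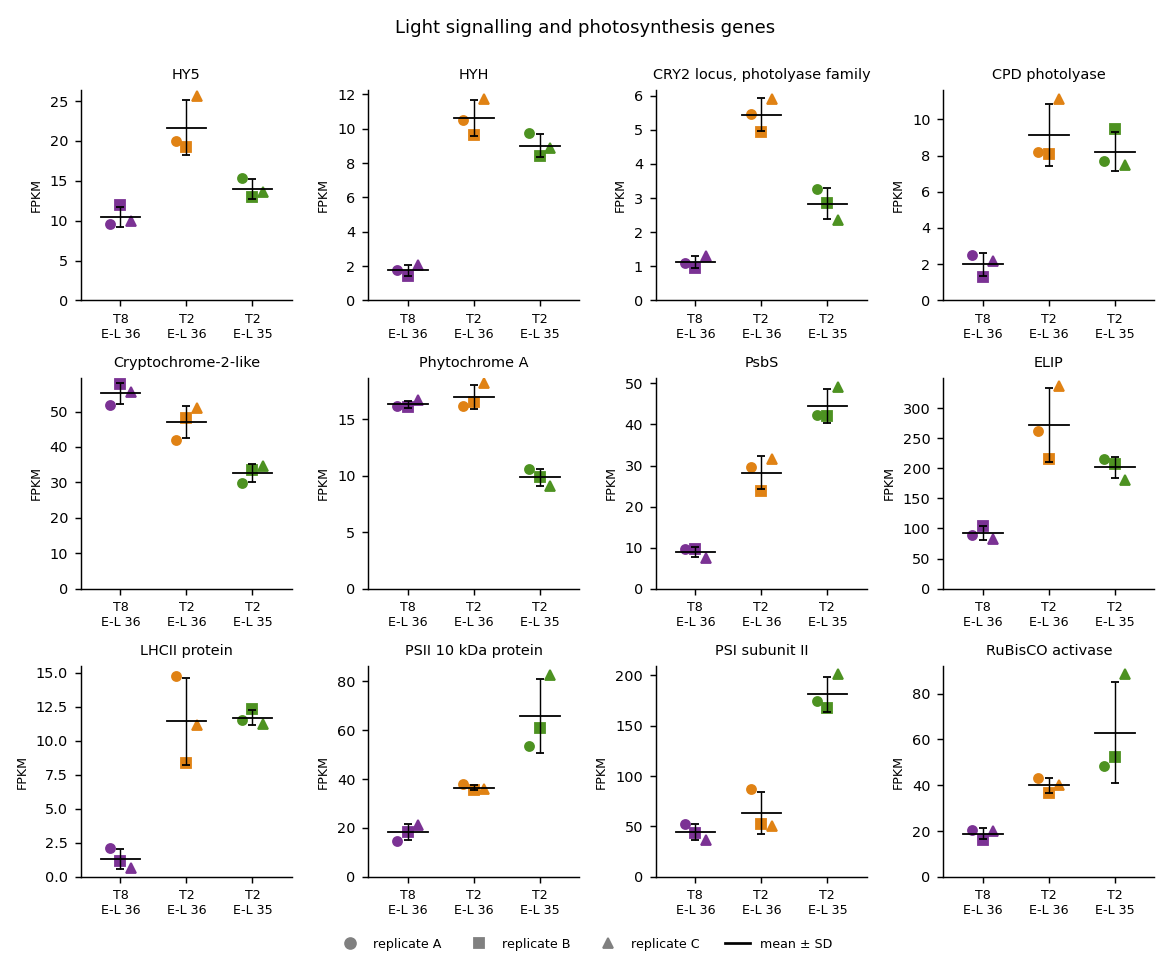
FPKM of 12 genes of light signalling and photosynthesis in T8 berries at E-L 36, T2 berries at E-L 36 and T2 berries at E-L 35, with a point for each replicate and the mean ± SD of 3 in black. HYH, both photolyase genes, PsbS, ELIP and the LHCII protein have their T8 values under all T2 values, while phytochrome A is at a like level in both E-L 36 groups.

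The 15 largest falls named by the rule were from -2.16 to -3.43 on the log2 scale, beside CP43, and held 3 light-harvesting or photosystem genes besides, 2 hydroxylases of the F3'5'H type, VviMYBA1, PAL and ACC oxidase. A salicylate O-methyltransferase-like gene (VIT_204s0023g02280) had 3.68, 5.70 and 5.82 FPKM in T8 berries, 33.72, 4.98 and 6.95 FPKM in T2 berries at E-L 36 and 72.12, 75.83 and 46.33 FPKM in T2 berries at E-L 35. It fell in both steps, with -3.43 (SE 0.84, adjusted p = 0.00255) under cover and -2.44 (SE 0.84, adjusted p = 0.0335) in the light, and the E-L 36 groups overlapped. A serine carboxypeptidase-like gene (VIT_203s0088g00260) had 4.30, 2.23 and 3.58 FPKM in T8 berries, 11.49, 8.42 and 4.91 FPKM in T2 berries at E-L 36 and 31.07, 30.64 and 21.36 FPKM in T2 berries at E-L 35. T8 libraries were the lowest, with -2.73 (SE 0.41, adjusted p = 8.56e-06) under cover and -1.68 (SE 0.41, adjusted p = 0.00298) in the light. An rd22-type gene (VIT_204s0008g03950), named after a drought response gene of Arabidopsis, had 2.65, 2.13 and 3.62 FPKM in T8 berries, 5.84, 7.71 and 9.99 FPKM in T2 berries at E-L 36 and 14.73, 16.25 and 16.63 FPKM in T2 berries at E-L 35. The groups did not overlap, and the steps of -2.17 (SE 0.31, adjusted p = 4.67e-06) and -0.96 (SE 0.31, adjusted p = 0.025) differed by -1.21 (SE 0.31, adjusted p = 0.00787).

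Seed-type transcripts were among the largest rises over the covered step. Of the 8 late embryogenesis and oil body genes that passed the filter, 7 rose and 1 fell, with a median of 5.01, and the 7 followed the seed score, against no rise and 1 fall in the light. Under cover that is 87.5% and 12.5%, beside 19.5% and 9.81% of all members. Since the late embryogenesis and oil body genes are among those that make up the score, a fit with it says nothing further about them. Dehydrin 1a (VIT_204s0023g02480), a protein that protects drying cells, had 2274.28, 1954.21 and 1258.44 FPKM in T8 berries, 65.58, 18.58 and 171.27 FPKM in T2 berries at E-L 36 and 33.92, 32.14 and 85.48 FPKM in T2 berries at E-L 35. The T8 libraries stood far above the others, and replicate C was the highest of both T2 groups, with 5.26 (SE 0.93, adjusted p = 8.00e-05) for the covered step. A late embryogenesis abundant protein (VIT_203s0038g04390) had 328.85, 255.40 and 146.18 FPKM in T8 berries, 0.00, 0.14 and 15.01 FPKM in T2 berries at E-L 36 and 0.69, 0.58 and 3.97 FPKM in T2 berries at E-L 35, a log2 fold change of 6.61 (SE 1.24, adjusted p = 0.000159).

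Storage proteins of the embryo and endosperm rose in part. Of 7 seed storage genes 4 rose and 1 fell under cover, with 3 that followed the score. That is 57.1% and 14.3%, beside 19.5% and 9.81% of all members. Of the 15 seed markers that passed the filter 10 were higher in T8 than in T2 berries at E-L 35 without overlap, beside 29.2% of all members. VIT_206s0004g03260 and VIT_214s0030g01470 passed the filter only through T8 berries, with means of 0.92 and 0.69 FPKM in T2 berries at E-L 35. The storage genes are part of the score as well, so following it says nothing further about them. A glutelin type-B 5-like gene (VIT_212s0034g01910, named after its values were seen) went the other way, at 13.24, 10.89 and 7.50 FPKM in T8 berries, 55.92, 66.21 and 79.89 FPKM in T2 berries at E-L 36 and 27.98, 37.47 and 16.36 FPKM in T2 berries at E-L 35. Its T8 libraries were the lowest, with -1.25 (SE 0.65, adjusted p = 0.169) for the covered step and a difference of -2.58 (SE 0.65, adjusted p = 0.00691) at E-L 36. The gene that fell was glutelin type-A 1 (VIT_206s0004g04060), with -0.43 (adjusted p = 0.00819). A basic 7S globulin-like gene (VIT_214s0128g00200) had 724.67, 398.71 and 179.15 FPKM in T8 berries, 0.00, 0.00 and 10.30 FPKM in T2 berries at E-L 36 and 2.54, 3.05 and 2.93 FPKM in T2 berries at E-L 35, with 6.61 (SE 1.54, adjusted p = 0.00168). A 2S albumin-like gene (VIT_219s0177g00090, named after its values were seen) spread widely within the group, at 352.49, 105.21 and 4.34 FPKM in T8 berries, 0.00, 0.00 and 0.77 FPKM in T2 berries at E-L 36 and 3.60, 4.05 and 5.67 FPKM in T2 berries at E-L 35. Replicate C of T8 overlapped with T2 berries at E-L 35 for this gene, and its rise of 3.45 (SE 1.30, adjusted p = 0.0495) was near the threshold and was lost with scaled libraries. Of 5 embryo and endosperm regulators 1 rose, an ABI5-like factor of abscisic acid signalling (VIT_213s0175g00120), by 0.30 (adjusted p = 0.0216), and its rise was lost with scaled libraries as well. That is 20% of the list, beside 19.5% of all members.

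Other genes known from seeds rose too. Malate synthase (VIT_217s0000g01820), which serves the conversion of seed oil into sugar through the glyoxylate cycle, had 212.83, 212.01 and 119.56 FPKM in T8 berries, 0.09, 0.00 and 15.80 FPKM in T2 berries at E-L 36 and 0.00, 0.00 and 0.21 FPKM in T2 berries at E-L 35, with 7.37 (SE 1.21, adjusted p = 3.09e-05). Isocitrate lyase (VIT_212s0059g02350), the partner of malate synthase, had 41.12, 52.78 and 22.45 FPKM in T8 berries, 0.00, 0.00 and 3.23 FPKM in T2 berries at E-L 36 and 0.00, 0.00 and 2.2 FPKM in T2 berries at E-L 35, with 4.67 (SE 1.02, adjusted p = 0.000904). Of 5 glyoxylate cycle genes these were the 2 that rose, both followed the score, and neither passed with the score as a covariate. That is 40% of the list, beside 19.5% of all members. An aquaporin of the TIP3 type (VIT_216s0039g00220), known from storage vacuoles of seeds, had 115.64, 97.73 and 63.58 FPKM in T8 berries, 0.70, 0.14 and 6.95 FPKM in T2 berries at E-L 36 and 0.97, 1.17 and 2.45 FPKM in T2 berries at E-L 35. T8 libraries again lay far above the rest.

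A small heat shock protein of the HSP20 family (VIT_218s0001g01570) had the largest rise of the genes named by the rule, with 1970.86, 1240.67 and 822.78 FPKM in T8 berries, 1.31, 0.26 and 91.09 FPKM in T2 berries at E-L 36 and 0.52, 1.09 and 9.13 FPKM in T2 berries at E-L 35. The T8 libraries were the highest, replicate C stood out within both T2 groups, and the log2 fold change of 8.63 (SE 2.0, adjusted p = 0.00156) was 0.05 with the score as a covariate (adjusted p = 0.991). A larger rise of 10.10, in VIT_214s0108g00520 (r = 0.89 with the score), lay outside the rule because the gene has neither a protein title nor a KEGG name, and it is named after its values were seen. The other genes of the 15 largest rises named by the rule, beside those given above, were a second HSP20 gene, 2 seed maturation proteins of 18 kDa, an endochitinase, an acyl carrier protein reductase, a cytochrome P450 of the 82A3 type, an aldose reductase, a cysteine proteinase, 1-Cys peroxiredoxin, another late embryogenesis protein and a cinnamyl alcohol dehydrogenase. Their log2 fold changes were from 5.74 for the dehydrogenase (VIT_204s0044g00210) to 8.32 for the HSP20 gene (VIT_204s0008g01610), and all 15 followed the seed score, with r from 0.79 to 0.97. The cytochrome P450 (VIT_218s0001g11520) was the member of this group that still passed with the score as a covariate (adjusted p = 0.0336). VIT_203s0038g04390, VIT_209s0002g06070 and VIT_214s0128g00200 are themselves part of the score, so their r and their loss in that fit are partly built in.

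**Figure D4:**
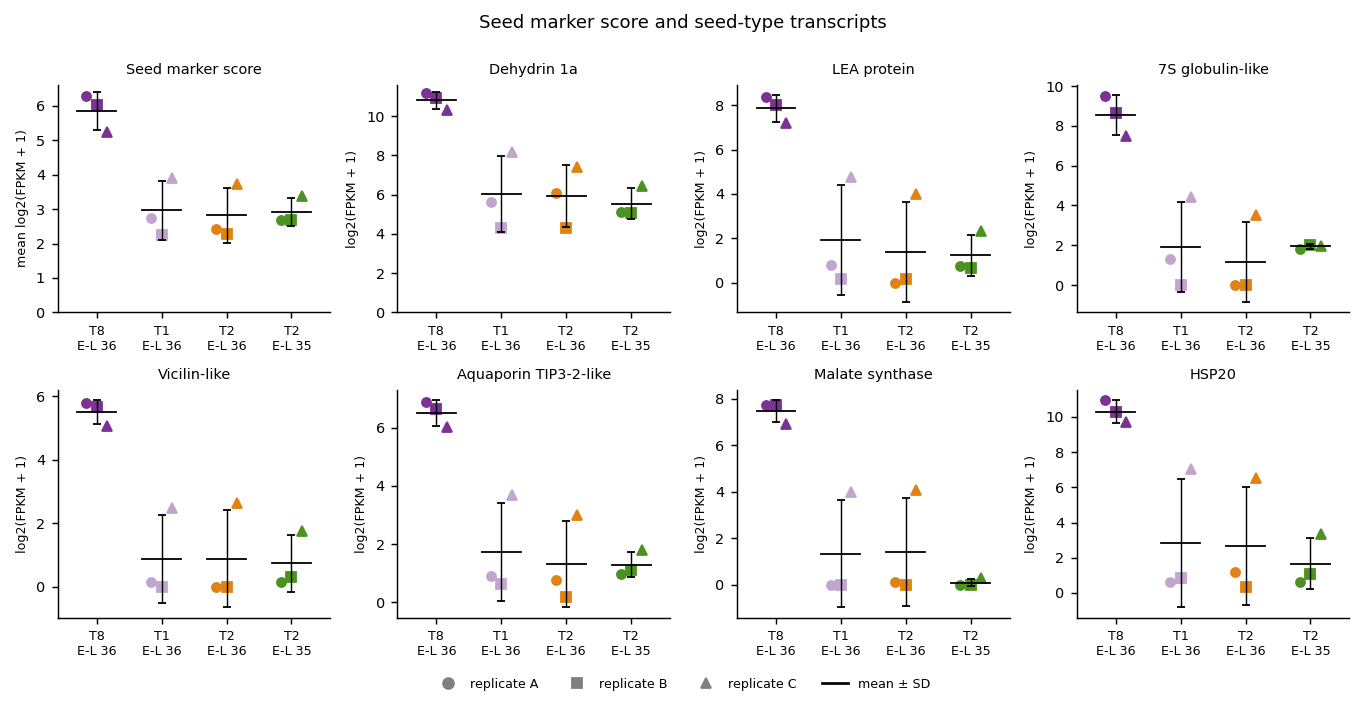
Seed marker score and the log2(FPKM + 1) of 7 seed-type genes in T8, T1 and T2 berries at E-L 36 and T2 berries at E-L 35, with a point for each replicate and the mean ± SD of 3 in black. All T8 points lie above the others, and replicate C is the highest of the T1 and T2 groups at E-L 36 in each panel.

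Hormone genes moved in both directions. NCED (VIT_202s0087g00910), the enzyme that commits carotenoids to abscisic acid, had 4.76, 7.02 and 11.12 FPKM in T8 berries, 6.41, 5.51 and 11.98 FPKM in T2 berries at E-L 36 and 0.47, 0.78 and 1.44 FPKM in T2 berries at E-L 35. Both E-L 36 groups lay above all E-L 35 libraries and overlapped with each other, with 2.15 (SE 0.30, adjusted p = 2.77e-06) under cover, 2.21 (SE 0.30, adjusted p = 2.31e-06) in the light and a difference of -0.05 (SE 0.30, adjusted p = 0.961). An abscisic acid 8'-hydroxylase (VIT_211s0065g00630), which breaks the hormone down, had 3.06, 2.05 and 3.73 FPKM in T8 berries, was listed at 0 in all T2 libraries at E-L 36, and had 0.07, 0.08 and 0.41 FPKM in T2 berries at E-L 35, a rise of 1.72 (SE 0.25, adjusted p = 6.51e-06) under cover. Of 18 genes of abscisic acid synthesis and turnover 2 rose and 4 fell, which is 11.1% and 22.2% (2 and 6 with scaled libraries). Of 48 signalling genes 13 rose and 6 fell, which is 27.1% and 12.5% (9 and 9 with scaled libraries, 7 and 4 with the seed score as a covariate). Over all members the shares were 19.5% and 9.81%. A receptor of the PYR/PYL family (VIT_210s0003g01335) rose with the seed score (r = 0.84), at 14, 9.28 and 7.98 FPKM in T8 berries, 0.00, 0.00 and 0.64 FPKM in T2 berries at E-L 36 and was listed at 0 in all T2 libraries at E-L 35. A PP2C phosphatase (VIT_214s0060g01580), a brake on the signal, fell in both steps, with -0.81 under cover (adjusted p = 4.31e-08) and -0.88 in the light (adjusted p = 9.58e-09).

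ACC oxidase VIT_211s0016g02380, which makes ethylene, was lower at E-L 36 with and without light, at 9.41, 9.75 and 9.15 FPKM in T8 berries, 21.67, 9.26 and 3.29 FPKM in T2 berries at E-L 36 and 57.38, 69.20 and 41.85 FPKM in T2 berries at E-L 35. The steps were -2.42 (SE 0.36, adjusted p = 7.11e-06) and -2.49 (SE 0.36, adjusted p = 6.13e-06), and the E-L 36 groups overlapped. EIN3-binding F-box genes, which dampen the ethylene response, rose in both steps, VIT_204s0008g05470 by 0.99 under cover and 0.70 in the light and VIT_211s0016g05410 by 0.89 and 0.78, each at an adjusted p under 0.05. Over 44 ethylene genes 6 rose and 5 fell (5 and 9 with scaled libraries), which is 13.6% and 11.4% beside 19.5% and 9.81% of all members.

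DELLA proteins repress gibberellin responses. The 4 genes named from the gibberellin list, those with its smallest adjusted p, were annotated as such and rose under cover. Since they were picked by p, they do not show how DELLA genes behaved as a set. The DELLA gene VIT_213s0019g01220 had 6.53, 10.62 and 9.45 FPKM in T8 berries, 7.70, 6.25 and 9.55 FPKM in T2 berries at E-L 36 and 1.39, 1.67 and 1.09 FPKM in T2 berries at E-L 35, a rise of 2.03 (SE 0.21, adjusted p = 4.24e-08) under cover and 1.88 (SE 0.21, adjusted p = 1.14e-07) in the light. The DELLA genes VIT_206s0009g02390 and VIT_212s0057g00560 rose likewise, by 1.54 and 1.51 under cover. The remaining one, VIT_201s0011g05260, had 27.79, 18.86 and 17.50 FPKM in T8 berries, 7.70, 7.01 and 6.36 FPKM in T2 berries at E-L 36 and 8.59, 7.01 and 8.0 FPKM in T2 berries at E-L 35. T8 libraries lay above all T2 libraries, with a rise of 1.31 (SE 0.20, adjusted p = 8.53e-06) under cover, -0.14 (SE 0.20, adjusted p = 0.681) in the light and a difference of 1.46 (SE 0.20, adjusted p = 5.90e-06), and it did not follow the seed score (r = -0.05). Of 43 gibberellin genes 12 rose and 2 fell under cover, which is 27.9% and 4.65% beside 19.5% and 9.81% of all members (9 and 3 with scaled libraries, 7 and none with the seed score as a covariate).

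Auxin genes had 28 rises and 7 falls among 82 members (23 and 10 with scaled libraries), which is 34.1% and 8.54% beside 19.5% and 9.81% of all members, against 16 and 12 in the light. With the seed score as a covariate 12 auxin genes rose and 2 fell. The auxin response factor VIT_202s0025g01740 had 13.34, 11.28 and 9.66 FPKM in T8 berries, 3.88, 3.77 and 4.53 FPKM in T2 berries at E-L 36 and 2.70, 2.56 and 3.15 FPKM in T2 berries at E-L 35, with 1.70 (SE 0.17, adjusted p = 2.85e-08) under cover and a difference of 1.29 (SE 0.17, adjusted p = 5.90e-06). Response factor VIT_211s0065g00310 rose in both steps, with 1.11 under cover, 0.50 in the light and a difference of 0.61 (SE 0.12, adjusted p = 0.000583). Beside 19.5% rises and 9.81% falls over all members, cytokinin genes had 15 rises and 8 falls among 64 (23.4% and 12.5%, with 13 and 11 scaled) and jasmonate genes 7 and 2 among 32 (21.9% and 6.25%, with 6 and 3 scaled), and with the seed score as a covariate these were 7 and 3 for cytokinin and 3 and 1 for jasmonate. The transcription factor MYC2 (VIT_207s0104g00090), a hub of jasmonate responses, fell in both steps, with -0.42 under cover (adjusted p = 0.00475, lost with the seed score as a covariate) and -0.80 in the light (adjusted p = 4.01e-06).

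**Figure D5:**
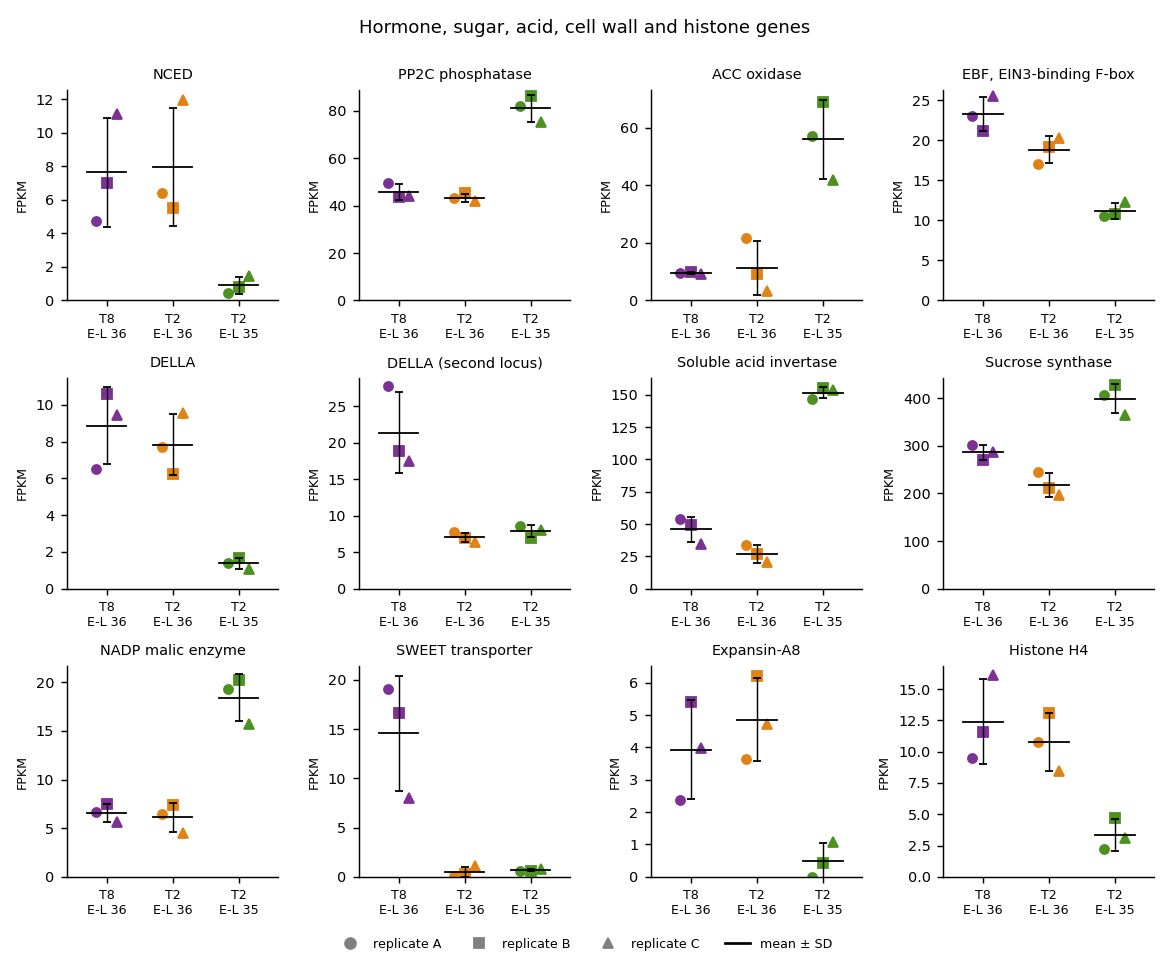
FPKM of 12 genes of hormones, sugar and acid metabolism, cell wall and chromatin in T8 berries at E-L 36, T2 berries at E-L 36 and T2 berries at E-L 35, with a point for each replicate and the mean ± SD of 3 in black. NCED, the first DELLA gene, expansin-A8 and histone H4 are higher, and ACC oxidase, acid invertase and malic enzyme lower, in both E-L 36 groups than at E-L 35, while the second DELLA locus and the SWEET transporter are high in T8 berries.

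Genes of sugar handling were mixed. Soluble acid invertase VIT_216s0022g00670, which splits sucrose in the vacuole, had 53.52, 48.95 and 34.92 FPKM in T8 berries, 33.59, 26.65 and 20.31 FPKM in T2 berries at E-L 36 and 146.64, 154.99 and 153.37 FPKM in T2 berries at E-L 35. The 3 groups did not overlap, and the steps were -1.73 (SE 0.25, adjusted p = 4.45e-06) under cover and -2.48 (SE 0.25, adjusted p = 1.75e-08) in the light. Their difference of 0.75 (SE 0.25, adjusted p = 0.0406) was lost under several alternatives, scaling among them. Sucrose synthase VIT_207s0005g00750 had the same order, with -0.48 under cover, -0.87 in the light and a difference of 0.40 (SE 0.10, adjusted p = 0.00709) that was lost with the seed score as a covariate or without replicate A of T8 or C of T2 at E-L 36. An alpha-amylase (VIT_201s0026g01660), which breaks starch down, rose in both steps, at 22.60, 21.23 and 20.99 FPKM in T8 berries, 17.22, 19.12 and 17.10 FPKM in T2 berries at E-L 36 and 10.15, 8.41 and 9.17 FPKM in T2 berries at E-L 35, a rise of 1.14 (SE 0.09, adjusted p = 1.51e-10) under cover. Over 37 genes of sucrose and starch 6 rose and 5 fell under cover, but 4 and 7 with scaled libraries and 3 and 2 with the seed score as a covariate. Unscaled, that is 16.2% and 13.5%, near the 19.5% and 9.81% of all members.

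Of 23 sugar transporters 8 rose and 1 fell under cover (34.8% and 4.35%, beside 19.5% and 9.81% of all members), against 2 and 5 in the light, and 9 were higher and none lower in T8 than in T2 berries at E-L 36. The SWEET transporter VIT_202s0025g02080 had 19.06, 16.62 and 8.01 FPKM in T8 berries, 0.12, 0.24 and 1.09 FPKM in T2 berries at E-L 36 and 0.60, 0.63 and 0.80 FPKM in T2 berries at E-L 35, with 3.14 (SE 0.43, adjusted p = 2.78e-06), and it followed the seed score (r = 0.75). VIT_214s0066g01420, another SWEET gene, had 5.06, 2.13 and 3.94 FPKM in T8 berries, 0.48, 0.00 and 0.00 FPKM in T2 berries at E-L 36 and 0.16, 0.00 and 0.00 FPKM in T2 berries at E-L 35, with 2.11 (SE 0.30, adjusted p = 3.66e-06) and an r of 0.33 with the score. Of the 23, 3 followed the score, and 4 rose with the score as a covariate. Transporters higher in T8 than in T2 berries at E-L 36 were 39.1%, beside 10.8% of all members, and 5 were higher with the covariate.

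NADP-dependent malic enzyme VIT_204s0008g00180, which decarboxylates malate, had 6.62, 7.44 and 5.60 FPKM in T8 berries, 6.49, 7.4 and 4.46 FPKM in T2 berries at E-L 36 and 19.31, 20.26 and 15.68 FPKM in T2 berries at E-L 35. The E-L 36 groups overlapped and both lay under E-L 35, with -1.36 (SE 0.20, adjusted p = 9.57e-06) under cover and -1.46 (SE 0.20, adjusted p = 4.15e-06) in the light and a difference of 0.10 (SE 0.20, adjusted p = 0.839). A tonoplast dicarboxylate transporter (VIT_200s0187g00120), which moves malate across the vacuole membrane, had 20.66, 15.15 and 12.24 FPKM in T8 berries, 2.39, 1.93 and 2.85 FPKM in T2 berries at E-L 36 and 1.42, 1.49 and 3.14 FPKM in T2 berries at E-L 35. Its rise of 2.51 (SE 0.54, adjusted p = 0.000727) followed the seed score (r = 0.53) and did not pass with it as a covariate (adjusted p = 0.279). Over 42 organic acid genes 6 rose and 4 fell, but 3 and 12 with scaled libraries and 2 and 4 with the seed score as a covariate. Unscaled, that is 14.3% and 9.52%, near the 19.5% and 9.81% of all members.

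Cell wall and water channel genes fell in both steps more often than they rose. Of 102 genes of wall loosening and pectin, 12 rose and 16 fell under cover (9 and 23 with scaled libraries, 6 and 5 with the seed score as a covariate), against 7 and 31 in the light, and 14 were higher and 1 lower in T8 than in T2 berries at E-L 36 (13 and 3 scaled). Under cover the shares were 11.8% and 15.7%, beside 19.5% and 9.81% of all members. In T8 against T2 berries at E-L 36 they were 13.7% and 0.98%, beside 10.8% and 3.06%. With the covariate 3 were higher and 1 lower in that comparison. Expansin-A8 (VIT_206s0004g07970), which loosens walls, had 2.36, 5.42 and 3.99 FPKM in T8 berries, 3.64, 6.20 and 4.72 FPKM in T2 berries at E-L 36 and 0.00, 0.44 and 1.07 FPKM in T2 berries at E-L 35. Both E-L 36 groups lay above E-L 35, with 1.72 (SE 0.31, adjusted p = 8.19e-05) under cover and 2.0 (SE 0.31, adjusted p = 1.46e-05) in the light. A polygalacturonase (VIT_209s0002g06380), which cuts pectin, had 4.20, 3.81 and 4.78 FPKM in T8 berries, 7.11, 7.69 and 7.93 FPKM in T2 berries at E-L 36 and 7.65, 9.31 and 9.0 FPKM in T2 berries at E-L 35. All T8 libraries lay lowest, with -0.87 (SE 0.12, adjusted p = 2.57e-06) against E-L 35 and -0.71 (SE 0.12, adjusted p = 0.000134) against T2 berries at E-L 36. Of 21 aquaporins 10 fell and 2 rose under cover (12 and 2 scaled, 3 and none with the seed score as a covariate), against 14 falls in the light, and 6 were higher in T8 than in T2 berries at E-L 36. The falls under cover were 47.6% of the list, beside 9.81% of all members, and the rises 9.52%, beside 19.5%. Aquaporins higher in T8 than in T2 berries at E-L 36 were 28.6%, beside 10.8%, and 1 was higher with the covariate. Aquaporin VIT_208s0040g01890 of the PIP type, abundant in the plasma membrane, had 153.55, 134.71 and 115.12 FPKM in T8 berries, 152.65, 156.48 and 124.53 FPKM in T2 berries at E-L 36 and 266.79, 267.54 and 249.11 FPKM in T2 berries at E-L 35. Both E-L 36 groups lay under E-L 35, with -0.96 (SE 0.19, adjusted p = 0.000228) under cover and -0.86 (SE 0.19, adjusted p = 0.00102) in the light.

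Heat shock genes rose in both steps. Of 76 members 44 rose and 3 fell under cover (41 and 4 with scaled libraries), with a median of 0.94, of which 7 followed the seed score, and 30 rose with the score as a covariate. The rises were 57.9% and the falls 3.95% of the list, beside 19.5% and 9.81% over all genes of the comparison. In the light 28 rose and 4 fell, and 14 were higher and 3 lower in T8 than in T2 berries at E-L 36. The latter are 18.4% and 3.95%, beside 10.8% and 3.06% of all members. With the score as a covariate none was higher and 1 was lower in that comparison. BiP-type HSP70 (VIT_216s0098g01580), a chaperone of the endoplasmic reticulum, had 79.67, 88.99 and 86.04 FPKM in T8 berries, 58.78, 73.68 and 69.15 FPKM in T2 berries at E-L 36 and 49.22, 51.31 and 44.92 FPKM in T2 berries at E-L 35, with 0.80 (SE 0.12, adjusted p = 1.17e-05) under cover and 0.46 (SE 0.12, adjusted p = 0.00609) in the light. A chloroplast small heat shock protein (VIT_216s0098g01060) had 7.80, 4.32 and 4.60 FPKM in T8 berries, against 0.09, 0.18 and 0.53 FPKM in T2 berries at E-L 36 and 0.09, 0.09 and 0.10 FPKM in T2 berries at E-L 35, with 2.55 (SE 0.39, adjusted p = 1.01e-05). It was high in all T8 libraries and under 1 FPKM in all the others, and it also followed the score (r = 0.57).

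Histone genes rose in both steps, with 20 rises and no fall among 39 under cover (18 and none scaled, 8 and 1 with the seed score as a covariate), 22 and 1 in the light, and 3 higher and 4 lower in T8 than in T2 berries at E-L 36. The rises under cover were 51.3% of the list, beside 19.5% of all members. Between T8 and T2 berries at E-L 36 the shares were 7.69% higher and 10.3% lower, beside 10.8% and 3.06%. With the covariate none was higher and 3 were lower in that comparison. Histone H4 VIT_213s0019g00780 had 9.52, 11.55 and 16.12 FPKM in T8 berries, 10.74, 13.10 and 8.43 FPKM in T2 berries at E-L 36 and 2.24, 4.71 and 3.09 FPKM in T2 berries at E-L 35, with 1.63 (SE 0.26, adjusted p = 2.52e-05) under cover and 1.46 (SE 0.26, adjusted p = 0.000137) in the light. Histone genes have near-identical copies that may share reads. Pathogenesis-related genes had 18 rises and 10 falls among 60, which is 30% and 16.7% beside 19.5% and 9.81% of all members. With scaled libraries there were 16 and 11, and with the seed score as a covariate 6 rises and 6 falls. PR-1 (VIT_203s0088g00910), a marker of salicylate defence, had 12.50, 5.67 and 15.65 FPKM in T8 berries, 0.90, 0.36 and 0.00 FPKM in T2 berries at E-L 36 and 0.52, 0.19 and 0.39 FPKM in T2 berries at E-L 35. T8 berries lay well above both T2 groups for this gene, with 3.07 (SE 0.51, adjusted p = 3.56e-05) and an r of 0.13 with the seed score. A MADS-box gene (VIT_217s0000g01230) also rose without following the score (r = 0.04), at 10.24, 8.19 and 13.30 FPKM in T8 berries, 1.21, 0.96 and 0.93 FPKM in T2 berries at E-L 36 and 0.56, 0.59 and 1.36 FPKM in T2 berries at E-L 35, with 2.66 (SE 0.42, adjusted p = 2.07e-05).

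Berries bagged since E-L 29 give a further set of values at E-L 36, with no test between T8 and T1 berries here. HYH had 0.65, 0.78 and 0.45 FPKM in T1 berries, all under the T8 libraries. PsbS had 8.88, 8.36 and 8.11 FPKM in T1 berries, within the range of T8 berries, and ELIP had 78.24, 69.77 and 53.49 FPKM, under all T8 libraries. UFGT had 49.61, 58.05 and 52.94 FPKM, F3'5'H VIT_206s0009g02840 had 24.17, 24.34 and 22.60 FPKM and GST4 had 187.27, 221.94 and 211.60 FPKM in T1 berries at E-L 36, each above all T8 libraries of that stage. The seed marker score of T1 libraries at E-L 36 was 2.24 to 3.92, under all T8 libraries.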

How the data were processed

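RNA of deseeded berries was sequenced by the authors as poly(A) libraries of 3 biological replicates in each of 14 groups of treatment and stage, and aligned to the grape reference genome (the submitters' processing notes name Bowtie2 2.2.5). The deposited table holds FPKM of 28940 genes in 42 libraries, which the authors normalized for transcript length and mapped reads. No read counts were used, so limma 3.58.1 (R 4.3.3) was fitted to log2(FPKM + 1), with a mean-variance trend and a mean for each of the 14 groups over all 42 libraries, on 21902 genes. P-values were adjusted by the Benjamini-Hochberg method over the fitted genes, SE come from limma's moderated variance, and tests are two-sided. The study used NOISeq instead, which was not used here.

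Members of the comparison, the 44 gene lists and the seed markers were chosen with earlier results of these data known, and list patterns were adjusted to the wording of the annotation. Genes were named by a rule. It took the 15 largest increases and decreases among DEGs with at least 5 FPKM in a group, no overlap and an annotated function. It took up to 4 members of each list by adjusted p, the anthocyanin branch with 5 further genes of the study, and the 8 largest differences in each direction between T8 and T2 berries at E-L 36. Gene functions are those of the deposited annotation or names used in the study.

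Alternatives were a pseudocount of 0.1, no filter or a mean of at least 5 FPKM, median-of-ratios scaling, only the groups compared, a block for the replicate letters, the seed score as a covariate, no trend, and leaving out each replicate. The fit was tested on simulated data. Figures were drawn with matplotlib 3.10.9 (Python 3.11.15, pandas 2.3.3, numpy 2.4.6). Replicates within the 3 groups compared correlated at 0.97 to 0.98 (Pearson's r over genes, which are not independent).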

Additional observations from a re-analysis of the deposited data

Results flagged for a closer look

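Effects of the covered and the light-grown step from E-L 35 differed for 877 DEGs, by the test of that difference (limma, adjusted p under 0.05), which equals T8 against T2 berries at E-L 36 since both steps share their E-L 35 libraries. All values here are differences on the log2(FPKM + 1) scale.

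Genes higher in T8 berries were the endochitinase VIT_200s1290g00010 (8.23), the HSP20 genes VIT_204s0008g01610 (7.71) and VIT_218s0001g01570 (7.61), the 7S globulin-like VIT_214s0128g00200 (7.38), the seed maturation protein VIT_208s0007g06430 (7.21), the late embryogenesis protein VIT_203s0038g04390 (6.46), 1-Cys peroxiredoxin VIT_205s0020g00600 (6.08) and malate synthase VIT_217s0000g01820 (6.06). All 8 followed the seed score, of which VIT_214s0128g00200 and VIT_203s0038g04390 are themselves a part. The differences of both HSP20 genes and the seed maturation protein did not pass with only the groups compared or without replicate B of T2 at E-L 36, and those of VIT_204s0008g01610 and VIT_208s0007g06430 also not without its replicate A.

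Genes of light and photosynthesis lower in T8 berries were the CP43 locus VIT_215s0046g01100 (-3.78, listed at 0 in all T8 libraries, so no fold), a light-harvesting protein VIT_212s0028g00320 (-2.45), HYH VIT_205s0020g01090 (-2.08), the D2 locus VIT_211s0103g00100 (-1.78), the photolyase VIT_204s0008g02670 (-1.77), serine hydroxymethyltransferase VIT_200s0211g00120 (-1.72), CRY2 VIT_209s0002g05990 (-1.60) and HY5 VIT_204s0008g05210 (-0.97). A benzoquinol hydroxylase-like gene, VIT_212s0057g00150, differed by -2.28, which did not pass with only the groups compared or without replicate B or C of T8 or replicate C of T2 at E-L 36. The difference of the D2 locus did not pass with only the groups compared.

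Pigment genes lower in T8 berries were F3'5'H VIT_206s0009g02840 (-1.91), VviMYBA1 VIT_202s0033g00410 (-1.54), VviFLS4 VIT_218s0001g03470 (-1.41, listed at 0 in all T8 libraries, so no fold), the MATE transporter VIT_216s0050g00910 (-1.14), GST4 VIT_204s0079g00690 (-1.10), UFGT VIT_216s0039g02230 (-0.94) and the methyltransferase VIT_201s0010g03510 (-0.74).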

How the results depend on the processing

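The number of DEGs over the covered step, 1140, stayed within 1.5 times under each alternative run, at 784 with a mean of at least 5 FPKM, 785 with the seed score as a covariate, and 1072 (without replicate B of T2 at E-L 35) to 1228 (without its replicate C) when a replicate was left out. With a pseudocount of 0.1 it was 1480. The light-grown step, 832 DEGs, had 700 to 954 without a replicate. The 877 DEGs between T8 and T2 berries at E-L 36 fell to 555 with a mean of at least 5 FPKM, where fewer genes were tested, and to 375 with the seed score as a covariate, and were 698 to 898 without a replicate. Deviations of T8 libraries at E-L 36 correlated little with those of the same letter in T2 at E-L 35 (-0.03, 0.02 and 0.00). With T2 at E-L 36 the correlations were 0.04, -0.04 and -0.11, and the T2 groups were not checked against each other. Replicate C had the highest seed score of T2 at E-L 35 and E-L 36 and the lowest of T8 at E-L 36. With a block for the letters the counts were 1137, 830 and 868.

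Of 194 called named genes, 133 kept their call under each alternative, 52 lost it with the seed score as a covariate and 27 under another alternative, with some genes in both of these counts. Counting a change of sign only where the main or the alternative fit called the gene, signs turned only in that covariate fit. Against E-L 35 they became -0.50 for VIT_204s0008g01610, -1.24 for VIT_208s0007g06430, -1.03 for VIT_200s1290g00010, -0.75 for VIT_214s0128g00200, -0.29 for VIT_208s0007g06420, -1.13 for VIT_205s0020g00600, -0.52 for VIT_209s0002g06070, -0.36 for VIT_216s0039g00220 and -0.53 for VIT_206s0004g03260. Between T8 and T2 berries at E-L 36 they became -1.26 for VIT_218s0001g01570, -1.41 for VIT_204s0008g01610, -1.73 for VIT_208s0007g06430, -0.078 for VIT_200s1290g00010, -0.22 for VIT_214s0128g00200, -0.49 for VIT_208s0058g00650, -0.58 for VIT_213s0019g05120, -0.93 for VIT_208s0007g06420, -1.13 for VIT_205s0020g00600, -0.89 for VIT_209s0002g06070, -0.088 for VIT_204s0044g00210, -0.58 for VIT_216s0039g00220, -0.26 for VIT_212s0059g02350 and -0.85 for VIT_206s0004g03260. VIT_214s0128g00200, VIT_209s0002g06070 and VIT_206s0004g03260 are part of the score, so their turns of sign are partly built into that fit. The same holds for calls lost there by other genes of the score, such as VIT_203s0038g04390. The cause was not tested. Depth is known only as a ratio between libraries, so no counting interval is given, and with 3 replicates small differences may have been missed.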
